A study of Homo sapiens with 4 samples.

Results

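CD38, FCER2, CD72, SORL1 and SEL1L3 encode membrane proteins of blood cells, and their transcripts were read on 4 arrays of a human acute myeloid leukaemia line, 3 with hairpins directed at RUNX1 and 1 with a control hairpin. They are 5 of 13085 genes that could be examined on the arrays. Each has 1 probe set that carries its symbol alone, with the identifiers 16965268 for CD38, 16867975 for FCER2, 17093694 for CD72, 16732584 for SORL1 and 16974968 for SEL1L3. The genes were chosen with the measured values in view. CD38, FCER2 and SORL1 were taken because they were higher, and CD72 because it was lower, on both arrays labelled as profound knockdown, so the values of those comparisons describe the genes and test nothing.

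The cells were MV4-11, an established monocytic leukaemia line with a KMT2A-AFF1 fusion. All 4 groups were transduced with a short hairpin RNA and then kept in 3 µM doxycycline for 24 h. The hairpins labelled profound 1, profound 2 and moderate are directed at RUNX1, a DNA-binding factor of blood cell development, and the control hairpin at luciferase, which the cells do not have. Each group is 1 array of 1 RNA sample, so no difference here has a replicate behind it and no p-value is given.

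CD38 is an ectoenzyme that consumes NAD at the cell surface and makes calcium-mobilising nucleotides, and it is a widely used marker of blood cell differentiation. Retinoic acid is known to raise it in myeloid leukaemia lines. FCER2 (CD23) is the low-affinity receptor for IgE, and CD72 is an inhibitory co-receptor of the B cell receptor. Both are C-type lectin proteins best known from B cells, and CD23 is also found on activated monocytes. SORL1 is an endosomal sorting receptor that shuttles cargo such as the amyloid precursor protein, and SEL1L3 is a membrane protein of the SEL1L family whose function is little characterised.

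The values are log2 RMA signals, a scale on which 1 unit is a doubling. The medians of the 4 arrays lay between 3.07 and 3.09, and 3.08 was the median of the whole table. Levels of different genes are not comparable on this scale, because probes differ in brightness. RUNX1 shares its probe set with another locus, LOC100506403. That probe set read 4.07 in profound 1, 4.04 in profound 2 and 4.33 in moderate, against 4.27 in control. Relative to control this is -0.19, -0.22 and 0.06 log2 units. Both profound arrays were thus below moderate, as labelled, but moderate was not below control. Each value was smaller than the robust SD of the same comparison among tested genes about as bright as CD38 (0.28, 0.25 and 0.22). The depth of knockdown can therefore not be read from this signal. In their description fields, profound 1 is called a knockdown of RUNX2 and profound 2 one of RUNX3, but titles and genotypes name RUNX1 for both. RUNX2 differed from control by -0.06 log2 units in profound 1, 0.10 in profound 2 and -0.07 in moderate, and RUNX3 by -0.42, -0.43 and 0.11. RUNX3 was thus below control in both profound arrays by nearly the same amount. Of the monocyte and macrophage genes, LYZ (between 11.3 and 11.6) and CSF1R (between 7.39 and 7.79) were bright on all arrays. CD14, between 2.10 and 2.33, stayed below the table median on all arrays, and so did VCAN and CD163. Each hairpin array is named by its label throughout.

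The start regions of the genes are shown because the targeted factor binds DNA and these genes differ between its hairpins. The 250 bases before the RefSeq start are printed for CD38, FCER2, SEL1L3 and CD72 (assembly GRCh38.p14, 5′ to 3′ on the strand of the gene), and capitals mark a RUNX or a PU.1 motif. FCER2 and SEL1L3 each have 2 listed starts, of which the outer one is printed, and the array does not separate the transcripts that begin at them.
CD38, chr4:15778078-15778327, plus strand: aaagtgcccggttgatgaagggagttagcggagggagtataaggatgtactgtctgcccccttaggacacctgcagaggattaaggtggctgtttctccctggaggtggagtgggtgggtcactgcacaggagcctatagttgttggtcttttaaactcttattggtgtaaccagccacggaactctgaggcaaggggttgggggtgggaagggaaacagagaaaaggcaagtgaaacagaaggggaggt
FCER2, chr19:7702132-7702381, minus strand: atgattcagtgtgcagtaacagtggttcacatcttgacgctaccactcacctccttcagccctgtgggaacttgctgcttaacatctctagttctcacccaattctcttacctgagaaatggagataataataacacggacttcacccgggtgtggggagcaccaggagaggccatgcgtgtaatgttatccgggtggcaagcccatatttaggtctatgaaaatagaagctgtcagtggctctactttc
SEL1L3, chr4:25863567-25863816, minus strand: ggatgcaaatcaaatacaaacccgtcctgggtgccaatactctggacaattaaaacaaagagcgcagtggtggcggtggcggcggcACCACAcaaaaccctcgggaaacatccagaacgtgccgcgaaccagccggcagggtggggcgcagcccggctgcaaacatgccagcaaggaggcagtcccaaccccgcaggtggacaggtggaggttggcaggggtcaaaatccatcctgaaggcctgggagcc
CD72, chr9:35618414-35618663, minus strand: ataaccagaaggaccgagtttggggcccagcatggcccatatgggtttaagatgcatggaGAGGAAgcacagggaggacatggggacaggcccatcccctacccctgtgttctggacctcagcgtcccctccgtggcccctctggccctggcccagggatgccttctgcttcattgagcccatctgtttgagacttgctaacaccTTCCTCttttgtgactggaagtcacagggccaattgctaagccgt

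The RUNX motif was searched as TGTGGT or TGCGGT and the PU.1 motif as GAGGAA, all on both strands. They did not overlap in these windows. The SEL1L3 window held 1 RUNX motif, read as ACCACA on the strand printed, with its first letter 164 bases before the start. The CD72 window held 2 PU.1 motifs, GAGGAA at 190 and TTCCTC at 45 bases before the start. The windows of CD38, SORL1, both starts of FCER2 and the inner start of SEL1L3 held none of these letters. Over 35116 windows of the same length, 16.3% held a RUNX motif of either spelling and 23.6% the PU.1 motif. Such a match is a description of the sequence and not a binding site.

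CD38 read 4.79 in profound 1, 5.23 in profound 2 and 3.73 in moderate, against 3.78 in control. Both profound arrays were thus high and the other two were level with each other. The differences from control were 1.01 log2 units (2.01-fold) in profound 1 and 1.45 (2.73-fold) in profound 2, and -0.05 in moderate. As a yardstick, the spread of a difference is the robust SD of that same difference among tested genes in the same of 6 classes of mean level. It was 0.28, 0.25 and 0.22 for these 3 differences of CD38. Profound 2 was above profound 1 by more than their spread, a gap of 0.44 log2 units against 0.28. Counted from the most positive difference down, CD38 was the second of all 13085 genes between profound 2 and control and the 40th between profound 1 and control.

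FCER2 read 7.01 in profound 1, 7.06 in profound 2 and 5.53 in moderate, against 6.08 in control. It had 3 levels, with both profound arrays together at the top, control in the middle and moderate at the bottom. The differences from control were 0.93 log2 units (1.91-fold) in profound 1, 0.99 (1.98-fold) in profound 2 and -0.55 (1.46-fold lower) in moderate. The spreads at its level were 0.28, 0.18 and 0.16. The profound arrays differed from each other by 0.06 log2 units, less than their spread of 0.26.

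SEL1L3 followed the same course as FCER2. Its direction was not part of the stated reason for choosing it, but it was chosen with these values in view. Nothing is read from the likeness. SEL1L3 read 6.80 in profound 1, 6.97 in profound 2 and 5.55 in moderate, against 6.08 in control. The differences from control were 0.72 log2 units (1.65-fold), 0.89 (1.85-fold) and -0.54 (1.45-fold lower), where the spreads were again 0.28, 0.18 and 0.16. The gap of 0.17 between profound 2 and profound 1 was within their spread of 0.26.

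SORL1 was the 1 gene of the 5 with its lowest level in control. It read 5.69 in profound 1, 5.39 in profound 2 and 4.69 in moderate, against 4.45 in control. The differences from control were 1.25 log2 units (2.37-fold), 0.95 (1.93-fold) and 0.25 (1.19-fold), with spreads of 0.28, 0.22 and 0.20. Every step in this order exceeded its spread, though the lowest step (0.25 against 0.20) and the highest (0.30 against 0.28) did so narrowly.

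CD72 was the mirror image of FCER2. It read 3.84 in profound 1, 4.10 in profound 2 and 5.25 in moderate, against 4.61 in control. Moderate was thus the highest array and both profound arrays the lowest. The differences from control were -0.77 log2 units (1.70-fold lower) in profound 1, -0.51 (1.42-fold lower) in profound 2 and 0.64 (1.56-fold higher) in moderate, with spreads of 0.28, 0.25 and 0.22. The gap of 0.26 between profound 2 and profound 1 was within their spread of 0.28. These are values of whole cell populations, in which fewer cells with a transcript and less transcript per cell cannot be told apart.

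**Figure D1:**
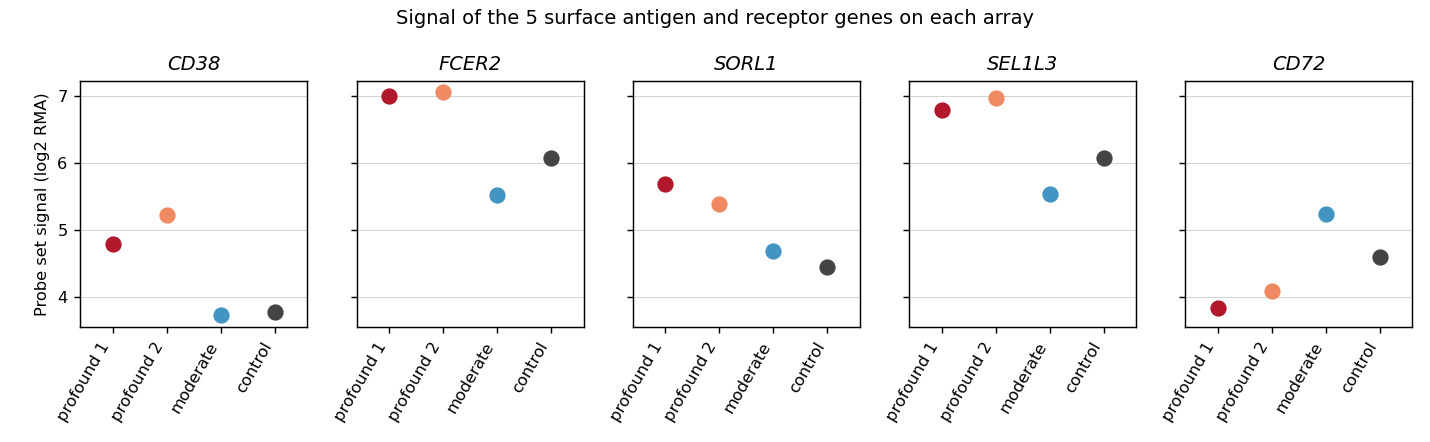
Log2 RMA signal (vertical axis) of each of the 5 genes on the 4 arrays (horizontal axis), 1 point per array. FCER2 and SEL1L3 are highest in both profound arrays and lowest in moderate, CD72 is highest in moderate (5.25), CD38 is near 3.7 to 3.8 in moderate and control, and SORL1 is lowest in control (4.45).

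A difference of at least 1.5-fold (0.585 log2 units) was used as the size that counts as a call. Against control, CD38, FCER2, SORL1 and SEL1L3 were higher by that size in both profound arrays, 4 of the 5 genes. Of all tested genes 0.344% were higher by this rule and 0.344% lower. Since the genes were chosen on this contrast, nothing is read from that. CD72 passed the size in profound 1, where 4.05% of tested genes were lower by it, but lay just outside it in profound 2 (-0.51), and SEL1L3 in profound 1 (0.72) lay nearest to it on the inside. At 2-fold only CD38 passed, with 1.01 and 1.45, and it was the 1 gene of 13085 to pass (0.00764%).

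**Figure D2:**
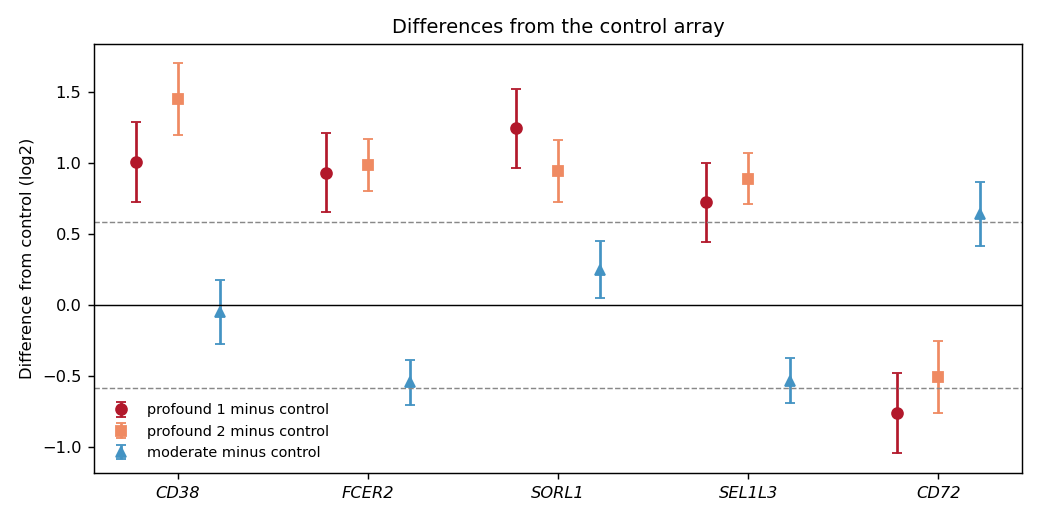
Log2 difference from the control array for profound 1, profound 2 and moderate (points), with bars of 1 robust SD of that difference among genes of similar level; dashed lines mark 1.5-fold. The bars are a spread across genes, not a replicate error. For FCER2, SEL1L3 and CD72 the moderate point lies across 0 from both profound points.

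The array labelled moderate was not named in the rule that chose the genes, although it is set against the same control array. Only CD72 passed 1.5-fold between moderate and control, on the higher side (0.64), against 0.955% of all tested genes called higher and 0.504% called lower. That excess of higher calls, 125 against 66, remained after rescaling by cyclic loess (125 and 68). It did not remain with each array centred on its median (89 and 89). FCER2 (-0.55) and SEL1L3 (-0.54) lay just short of that size on the lower side. Of the tested genes, 0.703% were as low as FCER2 in moderate, 0.795% as low as SEL1L3, and 0.550% as high as CD72. For CD38 (-0.05), 36.0% of genes were as low, and 10.8% were as high as SORL1 (0.25).

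The 3 genes FCER2, SEL1L3 and CD72 therefore lay on opposite sides of control in moderate and in both profound arrays, by more than the spread in each of these 3 differences. This arrangement, in either direction, was met by 63 of the 13085 tested genes (0.481%). Of these, 21 had moderate below and both profound arrays above control, like FCER2 and SEL1L3, and 42 the reverse, like CD72. The 3 comparisons share the control array, and FCER2 and CD72 were chosen for the profound side of this arrangement. SEL1L3 was chosen with those values in view.

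**Figure D3:**
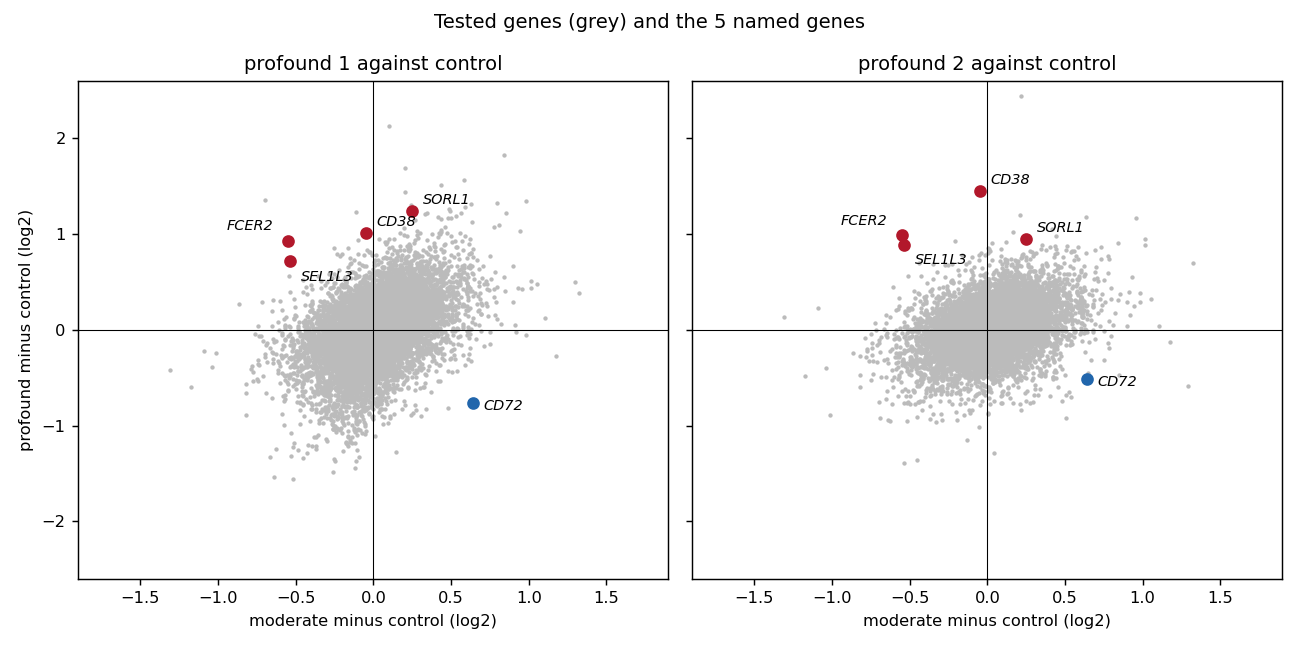
Difference of moderate from control (horizontal axis, log2) against the difference of profound 1 (left) and profound 2 (right) from control (vertical axis, log2) for 13085 tested genes (grey), with FCER2, SEL1L3, CD38 and SORL1 in red and CD72 in blue. Both axes contain the control array. FCER2 and SEL1L3 lie in the upper left and CD72 in the lower right.

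Set against moderate in place of control, the differences of 4 genes were larger. FCER2 was higher by 1.48 log2 units in profound 1 and 1.54 in profound 2, and SEL1L3 by 1.26 and 1.43. CD38 was 2.08-fold higher in profound 1 and 2.83-fold higher in profound 2. CD72 was lower, at -1.40 and -1.15. SORL1 was higher by 1.00 and 0.70, less than against control. All 5 genes passed 1.5-fold in both arrays (0.329% of tested genes were higher and 0.504% lower, 43 and 66 genes). Centring turned these 43 and 66 genes into 58 and 52, and cyclic loess into 38 and 65. At 2-fold, FCER2, SEL1L3 and CD38 were the 3 genes of 13085 that were higher in both profound arrays than in moderate (0.0229%), and CD72 was 1 of 3 that were lower (0.0229%). These values use the profound arrays on which the genes were chosen.

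Between profound 1 and profound 2 none of the 5 genes differed by 1.5-fold, where 5.33% of tested genes did. Both arrays were used in the choice, which favoured genes with like values on them, so nothing is read from that. The differences, profound 1 minus profound 2, were -0.44 for CD38, -0.06 for FCER2, 0.30 for SORL1, -0.17 for SEL1L3 and -0.26 for CD72. Those of CD38 and SORL1 exceeded their spread of 0.28.

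The likeness of 2 genes was measured as the Euclidean distance between their 4 values, each gene first centred on its own mean over the 4 arrays. With 4 points this is a description. The same arrays served to choose CD38, FCER2 and SORL1 as higher, and CD72 as lower, in both profound arrays. SEL1L3 was chosen with those values in view. Such a choice favours short distances among these genes, for CD72 with its sign turned, so nothing is read from their nearness to each other. FCER2 and SEL1L3 were each other's nearest gene among 13085, at a distance of 0.18 log2 units. The next gene for FCER2 was CD38 (0.44), and the third was the pseudogene GOLGA2P7 (0.51). SEL1L3 had GOLGA2P7 (0.38) and HIC1, a transcriptional repressor gene (0.38), as its next nearest. CD38 was nearest to SEL1L3 (0.43), FCER2 (0.44) and the fructose transporter gene SLC2A5 (0.51). With its sign turned, CD72 lay 0.36 from FCER2 and 0.33 from SEL1L3.

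SORL1 had other neighbours in pattern. Its nearest genes were DEPTOR, an inhibitor of mTOR signalling (0.22), LRRC25, a membrane protein gene of myeloid cells (0.23), and SLPI, a leukocyte protease inhibitor gene (0.27). All 3 were also above control in moderate, by 0.44, 0.30 and 0.38 log2 units. In that order of likeness to SORL1, CD38 was 253rd, SEL1L3 322nd and FCER2 366th.

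CD72 was nearest to the sialic acid receptor gene SIGLEC9 (0.19), the interleukin 7 receptor gene IL7R (0.25) and the tissue factor gene F3 (0.28). SIGLEC9 read 2.84 in profound 1, 3.25 in profound 2 and 4.14 in moderate, against 3.66 in control, and IL7R read 5.94, 6.27 and 7.14, against 6.84. Both thus had the order of CD72, with moderate highest and profound 1 lowest.

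The genes that act with CD38 were examined as a list of 27 genes of NAD synthesis and use, of which 20 were tested. None was 1.5-fold different in both profound arrays, where 0.344% of all tested genes were higher and 0.344% lower. The medians of 0.06 in profound 1 and -0.03 in profound 2 lay near those of all tested genes (0.00 in both). BST1 (CD157), which encodes a related ectoenzyme and is the neighbour of CD38 on chromosome 4, read 6.20 in profound 1, 6.14 in profound 2 and 6.21 in moderate, against 5.96 in control. All 3 hairpin arrays were thus slightly above control, by 0.24, 0.18 and 0.25 log2 units. TPCN1, a channel of endolysosomes, was at 0.70 and 0.41 in profound 1 and profound 2 and at 0.30 in moderate. TRPM2, a calcium channel opened by ADP-ribose, was at -0.16, -0.15 and -0.15. PECAM1, which encodes a ligand of CD38, was not analysed here.

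In both profound arrays 0.344% of all tested genes were 1.5-fold higher than control and 0.344% lower. Of 18 tested partners and inducers of FCER2, 1 was higher by that rule and none was lower. It was ITGAX (CD11c), a chain of an integrin that binds CD23, which read 4.15 in profound 1, 3.82 in profound 2 and 3.65 in moderate, against 3.02 in control. Unlike FCER2 it was above control in moderate as well, and it was dim in control, below the table median, so that it passed the filter on low signals through the hairpin arrays alone. ADAM10, the protease that sheds CD23, was at 0.46 and 0.42 log2 units in the profound arrays and 0.13 in moderate. The other integrin genes were close to control, with ITGAM at 0.12 and 0.07 and ITGB2 at 0.33 and 0.12.

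The interleukin 4 pathway is known to induce CD23 in B cells and monocytes. Its transcription factor gene STAT6 was at 0.34 log2 units in profound 1, 0.20 in profound 2 and 0.17 in moderate, and its receptor gene IL4R at -0.39, -0.03 and -0.01. RBPJ, the DNA-binding factor of NOTCH signalling, was at 0.59, 0.47 and 0.20. CR2 (CD21), a complement receptor and ligand of CD23, read between 2.01 and 2.17 on all arrays, below the table median. Of these genes only RBPJ reached 1.5-fold, in profound 1 alone. Others on the list of FCER2 partners and inducers also passed that size in a single array. They were the class II regulator gene CIITA (0.72) and the kinase gene JAK1 (-0.79) in profound 1, and IRF4 (0.61) in moderate.

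Of all tested genes, 0.344% were higher and 0.344% lower by 1.5-fold in both profound arrays. Among 7 tested Fc receptor genes, none was higher and 1 was lower by that rule. It was FCER1A, the ligand-binding chain of the high-affinity IgE receptor, which read 2.76 in profound 1, 3.30 in profound 2 and 3.59 in moderate, against 3.90 in control. The 2 IgE receptor genes thus lay on opposite sides of control in the profound arrays and on the same side in moderate. The signal chain gene FCER1G was at -0.06 and -0.07 in the profound arrays and at 0.56 in moderate. Profound 1 read FCER1A below the table median.

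No gene of the CD72 list differed from control by 1.5-fold in any array, out of 14 tested. The shares of all tested genes that did were 6.82% in profound 1, 2.41% in profound 2 and 1.46% in moderate. SEMA4D (CD100), the ligand of CD72, read 5.46 in profound 1, 5.40 in profound 2 and 5.43 in moderate, against 5.39 in control. PTPN6, the phosphatase recruited by CD72, was level too, at 9.54, 9.50 and 9.43, against 9.47. The kinase gene LYN had the largest difference shared by both profound arrays, at 0.33 and 0.29 log2 units. PLCG2, a phospholipase gene, was further from control in profound 1 (-0.48) but not in profound 2 (-0.07).

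The receptors of the same families as SORL1 stayed under 1.5-fold. Of 11 tested genes of the VPS10 and LDL receptor families none was 1.5-fold different from control in any array. The shares of all tested genes that were so were 6.82% in profound 1, 2.41% in profound 2 and 1.46% in moderate. The medians of the families were -0.10 in profound 1 and -0.09 in profound 2. LRP3 was at -0.52, -0.43 and -0.36 in profound 1, profound 2 and moderate, and LRP8, an apolipoprotein E receptor gene, at -0.37, -0.23 and -0.10. SORT1, the sortilin gene, was not analysed here. Of 21 sorting and cargo genes none passed in the profound arrays. The retromer core gene VPS35 lay between 9.77 and 9.80, and LRPAP1, a chaperone of these receptors, was at 0.26 and 0.24 log2 units in the profound arrays.

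SEL1L, the relative of SEL1L3 that serves in endoplasmic reticulum protein degradation, was at 0.28 log2 units in profound 1, 0.09 in profound 2 and 0.11 in moderate. SEL1L2 was below the table median on all arrays, between 2.47 and 2.86. Of 13 tested genes of that degradation pathway none was 1.5-fold different in both profound arrays, where 0.344% of all tested genes were higher and 0.344% lower. EDEM1, a mannosidase-like gene, came nearest on the higher side with 0.66 and 0.57, and DERL3 on the lower side with -0.72 and -0.38.

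**Figure D4:**
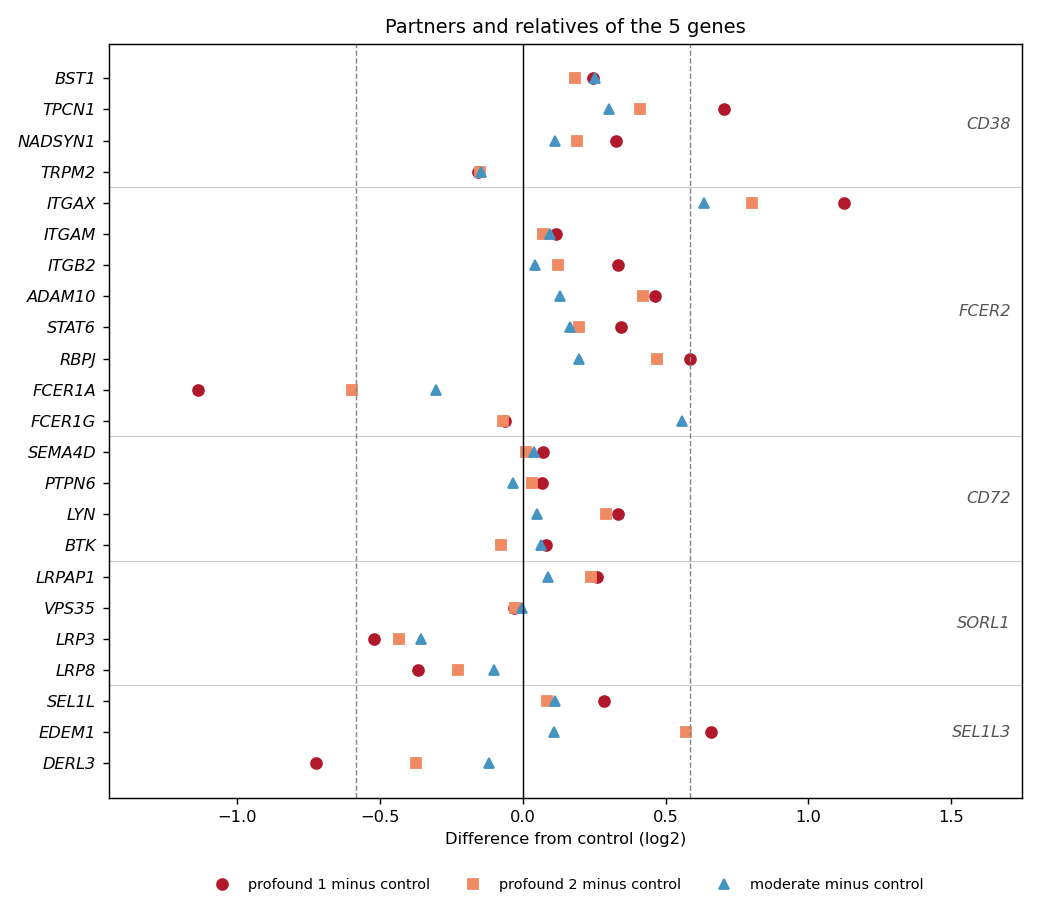
Log2 difference from control (horizontal axis) for partners and relatives of each gene (grouped at the right), with a point for profound 1, profound 2 and moderate; dashed lines mark 1.5-fold. ITGAX is beyond 1.5-fold higher in all 3 arrays and FCER1A beyond 1.5-fold lower in both profound arrays, whereas the points of SEMA4D, PTPN6 and VPS35 lie close to 0.

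FCER2 and CD72 are typical of B cells, so other B cell genes were read beside them. Of 20 tested B cell surface antigens none was 1.5-fold different in both profound arrays, where 0.344% of all tested genes were higher and 0.344% lower. Nothing is read from a count of 0 at those shares. CD84, a SLAM family receptor gene, came nearest with 1.51 in profound 1 and 0.52 in profound 2. CD22, an inhibitory B cell lectin gene, was at 0.34 and 0.51. It was below the table median in control and in moderate, so it passed the filter on low signals only through the profound arrays. The mean log2 signal of 13 B cell markers was 3.14 in profound 1, 3.13 in profound 2 and 3.03 in moderate, against 3.01 in control. Of the 8 tested, 0 passed 1.5-fold in both profound arrays. MS4A1 (CD20), EBF1, VPREB3, POU2AF1 and FCRL1 were below the table median on all 4 arrays and were therefore not tested. PAX5, the B lineage factor, lay between 3.07 and 3.31 without order. The B cell receptor chain gene CD79A was above the table median on every array, at 4.80 in profound 1, 4.12 in profound 2 and 4.64 in moderate, against 4.20 in control, and so were CD79B (between 3.80 and 4.11) and TNFRSF13C, a receptor gene for the survival factor BAFF (between 3.78 and 4.24). The B cell markers were thus partly below and partly above the table median, and their part in the differences of FCER2 and CD72 was not tested.

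Of 25 tested surface antigens used to type myeloid leukaemia, 2 were 1.5-fold higher in both profound arrays, ITGAX and CD68. The stem cell factor receptor gene KIT was the 1 that was lower. Over all tested genes the shares were 0.344% higher and 0.344% lower. ITGAX is the same call as among the partners of FCER2. It was below the table median in control and passed the filter on low signals through the hairpin arrays alone. CD68, a lysosomal glycoprotein gene of macrophages, read 9.98 in profound 1, 9.91 in profound 2 and 9.14 in moderate, against 9.28 in control, and so was high in both profound arrays and slightly below control in moderate. KIT read 4.30, 4.42 and 4.59, against 5.07, and was below control in all 3. FLT3, the mutated kinase gene of this line, lay between 9.28 and 9.46. The mean log2 signal of 12 monocyte and macrophage markers was 5.51 in profound 1, 5.55 in profound 2 and 5.59 in moderate, against 5.46 in control, and of the 9 tested, 1 passed as higher (CD68) and 1 as lower (CLEC10A). Their part in the differences of the 5 genes was not tested.

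Few genes of the other marker lists passed the size. Of all tested genes, 0.344% were higher and 0.344% lower by it in both profound arrays. In both profound arrays 0 of 6 plasma cell, 0 of 7 T and NK cell, 0 of 7 granulocyte, 0 of 3 eosinophil and 0 of 7 megakaryocyte and erythroid markers tested were 1.5-fold different. The medians of the granulocyte markers were nevertheless 0.31 in profound 1 and 0.26 in profound 2, against 0.00 over all tested genes in both. The neutrophil protease genes did not move together. ELANE was at 0.41 and 0.37 and PRTN3 at 0.31 and 0.31, but CTSG lay below control, at -0.56 and -0.14. The T cell gene CD3E stayed below the table median, between 2.17 and 2.55. Of 8 dendritic cell markers 2 were lower, FCER1A and CLEC10A, and the list's medians were -0.30 and -0.30. The 3 mast cell and basophil markers that passed the filter on low signals, KIT, FCER1A and GATA2, were lower. GATA2 read 2.54 in profound 1, 2.27 in profound 2 and 3.15 in moderate, against 3.15 in control, so it passed the filter only through the arrays where it was high, and its call was favoured by that filter. The mean log2 signal of 6 mast cell markers was 2.68 in profound 1, 2.74 in profound 2 and 3.00 in moderate, against 3.14 in control, and CPA3, HDC and ENPP3 among them were below the table median on all arrays. The part of this in the differences of the 5 genes was not tested.

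Retinoid and vitamin D signalling was read because of its known link with CD38. Of 13 tested genes none was 1.5-fold different in both profound arrays, where 0.344% of all tested genes were higher and 0.344% lower. The receptor genes RARA (-0.16 and -0.01 log2 units) and VDR (0.15 and 0.07) were close to control, and HIC1 was at 0.32 and 0.57 with -0.51 in moderate. PRAM1, an adaptor gene induced by retinoic acid, passed that size in profound 2 (0.84) and in moderate (0.69) and was at 0.28 in profound 1. The retinoid-induced genes CYP26A1 and CYP26B1 were below the table median on all arrays.

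Position in the genome was examined through the nearest 2 protein-coding genes on each side in the RefSeq order, a choice made after the values were seen. Of 20 such neighbours 12 were tested, and 0 were 1.5-fold different in both profound arrays. By that rule 0.344% of all tested genes were higher and 0.344% lower, so nothing is read from a count of 0 among 12. RBPJ, 2 places after SEL1L3, came nearest on the higher side, at 0.59 and 0.47 log2 units, with 0.20 in moderate. Next to FCER2, TRAPPC5 was at 0.11 and 0.05 log2 units in the profound arrays and CLEC4G at 0.21 and -0.26. MCEMP1, a mast cell and myeloid membrane protein gene a further place away, had the course of CD72 instead, at -0.65, -0.48 and 0.37 in profound 1, profound 2 and moderate. CD38 and SEL1L3 both lie on chromosome 4, FCER2 on 19, SORL1 on 11 and CD72 on 9.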

How the data were processed

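Each sample was hybridised to 1 whole-transcript array. The deposited values are log2 signals for 53617 probe sets. Per the submitters' processing notes, the authors used RMA, Affymetrix Expression Console 1.3.1 and Transcriptome Analysis Console 1.0. RMA equalises the arrays' distributions and draws dim probe sets toward a floor, which understates their differences. The genome build used is not given in the sources used here. 0 columns were unused.

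Groups follow the genotype field. Gene names came from the platform annotation, where 23871 probe sets have 1 symbol, 1842 several and 27904 none listed. Of those with 1 symbol, 88 were updated through the Entrez ID and 565 through a synonym (GRCh38.p14 gene table). Left out were symbols of immune receptor segments, antisense transcripts, small RNAs, unnamed loci and open reading frames. The probe set with the highest mean stood for a gene. Tested genes exceeded the table median (3.08) in at least 1 array, and the 5 genes did so in all 4. Calls rest on size alone, 1.5-fold, in both profound arrays with the same sign where so stated. That rule was tried on simulated data with noise set from the spread of moderate minus control. Over all tested genes that spread was 0.17 log2 units, against 0.26 for profound 1 and 0.19 for profound 2. The simulation thus gives no rate of false calls for the profound arrays.

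The 5 genes, the 10 pathway lists and the 9 marker lists were chosen with earlier results of these data known. Named besides the 5 are direct partners and the list members with the largest difference shared by both profound arrays, and the 3 genes nearest in pattern. Other genes (those outside this rule, such as IL4R, CD22 and the neighbours) were chosen after their values were seen. Alternatives were cyclic loess (limma 3.58.1), centring, the filter, the probe set rule, the fold and the array set against. Python 3.11.15 and R 4.3.3 were used. The precision is limited by the number of arrays.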

Additional observations from a re-analysis of the deposited data

Results flagged for a closer look

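FCER2, SEL1L3 and CD72 are given here because both hairpins labelled profound lay on one side of control and the hairpin labelled moderate on the other. FCER2 was at 0.93 and 0.99 log2 units in profound 1 and profound 2 and at -0.55 in moderate. SEL1L3 was at 0.72 and 0.89 and at -0.54 in moderate. CD72 was at -0.77 and -0.51 and at 0.64 in moderate. With 1 array each, the difference between the hairpins was not tested.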

How the results depend on the processing

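The 15 differences of the 5 genes from control moved by at most 0.02 log2 units under cyclic loess and at most 0.04 with each array centred on its median, and none moved with the mean of all probe sets, since each gene has 1. The count of the 5 genes past 1.5-fold in both profound arrays was 4 as deposited, 5 with moderate in place of control and 1 at 2-fold. It was 3 where the mean had to exceed the 75th percentile of the table, since CD38 was too dim for that filter. The count between moderate and control was 1 and at 2-fold 0. Over all pathway lists together (159 genes tested) 2 genes were higher and 2 lower in both profound arrays. These became 1 and 0 where the mean had to exceed the 75th percentile of the table, and 0 and 0 at 2-fold. Over all tested genes the 45 higher and 45 lower in both profound arrays became 25 and 12 under that filter, and 1 and 0 at 2-fold. Between moderate and control, the 125 higher and 66 lower became 125 and 68 under cyclic loess, 89 and 89 with centring and 7 and 5 at 2-fold. Those in both profound arrays against moderate, 43 and 66, became 38 and 65 under cyclic loess, 58 and 52 with centring and 3 and 3 at 2-fold. Between profound 1 and profound 2, 299 higher and 399 lower became 32 and 37. No paired analysis was possible because the groups share only replicate number 1. No array could be left out of a group, since each group is 1 array. Differences of dim probe sets are understated by the signal floor.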

Other observations

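Some surface antigen and antigen presentation genes passed 1.5-fold from control in profound 1 and in no other array. CD84 read 5.63 in profound 1, 4.64 in profound 2 and 4.56 in moderate, against 4.12 in control. The class II regulator gene CIITA read 5.35, 4.94 and 4.95, against 4.64, and the GM-CSF receptor gene CSF2RA read 7.97, 7.21 and 7.63, against 7.33. CLEC12A, a myeloid lectin receptor gene, was at 0.60 log2 units in profound 1, 0.03 in profound 2 and 0.45 in moderate. JAK1, a kinase of cytokine receptors, read 7.50 in profound 1, 8.21 in profound 2 and 8.28 in moderate, against 8.29 in control, and was thus low in profound 1. These genes were picked after their values were seen.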
